A study of Mus musculus with 2 samples.

Results

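Cell cycle and proliferation genes were examined in single lung cells of mice given media from cultured tumors (TCM) or the matching control media (CM). The module held 39 genes, all found by their symbols among the 32286 features of the deposited matrices. It comprised 17 genes of DNA replication (S phase members) and 22 genes of the G2 phase and mitosis (G2/M members). A droplet was kept as a cell when it held at least 500 unique molecular identifiers (UMIs, each standing for 1 captured RNA molecule) and 200 genes, with at most 10% mitochondrial UMIs. A kept cell was called cycling when its UMIs of Mki67, Top2a, Cdk1, Birc5 and Ube2c came to 2 or more. By this rule 163 of 15695 cells were cycling.

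Both libraries came from lungs of female BALB/c mice aged 9 to 10 weeks that received intravenous injections for 3 weeks. TCM was medium without serum in which pieces of orthotopic 4T1 mammary tumors had been cultured, pooled across tumors, and CM was the same medium incubated without tumor. Each treatment had 1 library, and the number of mice behind a library is not given in the sources used here. There was therefore no replicate check on any difference, no test between treatments was possible, and all intervals below are 95% intervals that cover counting error only.

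Dividing cells copy their DNA in S phase and separate the copies in mitosis. E2F transcription factors switch on the replication genes at the end of G1, while the genes of mitosis are held down until G2 by the DREAM complex and then driven by B-MYB and FOXM1. Most cells of the adult lung rest outside the cycle. Alveolar macrophages, the resident phagocytes of the airspace, are known to maintain themselves by local division, and neutrophils leave the bone marrow after their last division.

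The CM library kept 7988 cells with a median of 2085 UMIs, and the TCM library kept 7707 cells with a median of 2346 UMIs. The libraries shared 93 barcodes among 15602, and 1 cycling cell in each library had a barcode that was also a kept cell in the other. Cells were placed in 21 classes by 8 marker genes each, and a class name ending in "-like" stands for those markers. A droplet with 3 or more markers of a second class was counted apart as mixed, which held 21.1% of CM cells and 20.2% of TCM cells. Neutrophil-like cells made up 2.90% of CM cells and 17.5% of TCM cells, so that sums over all cells carried a different class makeup in each library.

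The cycling cells were as frequent in one library as in the other within counting error. In CM 85 of 7988 cells were cycling (1.06%, interval 0.851 to 1.31), and in TCM 78 of 7707 (1.01%, interval 0.801 to 1.26). The log2 ratio of the shares, TCM over CM, was -0.07 (interval -0.53 to 0.39). With each class weighted to its share of the CM library, the TCM share was 1.08%. Cycling cells were deeper than the rest, with a median of 8264 UMIs against 2057 in CM and 7763 against 2316 in TCM. Depth was then made equal by thinning every cell to 1000 UMIs, without the 2172 CM and 1632 TCM cells that had fewer, and the shares became 0.499% and 0.626%. At the edge of the call lay 22 CM and 13 TCM cells with exactly 2 UMIs, and 124 CM and 169 TCM cells with 1 UMI were just outside it.

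Next, the cycling cells were divided among the marker-gated classes. Among the gated classes alveolar macrophage-like cells held the largest number in both libraries. Of 265 such cells in CM 19 were cycling (7.17%, interval 4.37 to 11), and of 292 in TCM 27 were (9.25%, interval 6.18 to 13.2). The log2 ratio of these shares was 0.37, with an interval from -0.53 to 1.30 that included no difference. After thinning to 1000 UMIs the share was 2.55% in CM (6 of 235) and 7.29% in TCM (21 of 288), a log2 ratio of 1.51 (interval 0.16 to 3.11). The 8 markers that define the gate are no separate check of the label, and they were detected unevenly in its cycling cells. Chil3, a chitinase-like protein of alveolar macrophages, was found in 94.7% of them in CM and 100% in TCM, as were Plet1 and the mannose receptor gene Mrc1. Atp6v0d2, Fabp1 and Siglecf were found in 52.6% to 84.2% in CM and 63.0% to 92.6% in TCM. The scavenger receptor gene Marco was found in 21.1% and 11.1%, and Krt79 in 15.8% and 63.0%.

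T-like cells gave 11 cycling of 670 in CM (1.64%) and 12 of 510 in TCM (2.35%). By clusters they gave 7 of 724 (0.967%) and 12 of 469 (2.56%), a log2 ratio of 1.40 (interval -0.06 to 2.99). By gates dendritic-like cells had the highest share among classes of more than 30 cells in each library, with 6 of 50 (12%) in CM and 4 of 37 (10.8%) in TCM. By clusters the order was the other way, with dendritic-like cells at 5.19% and 8.82% and alveolar macrophage-like cells at 6.88% and 9.37%, so that the ranking depended on how cells were assigned. The cycling dendritic-like cells carried Clec9a and Xcr1 of 1 conventional dendritic subset and Cd209a of the other. Clec9a, of the cross-presenting subset, was found in 6 of 6 cells of CM (13 UMIs) and 4 of 4 of TCM (11 UMIs), and Xcr1, of the same subset, in 4 and 3 cells. Cd209a, of the other subset, was found in 4 of 6 cells (70 UMIs) and 4 of 4 (22 UMIs). Of the other gate markers, Naaa was found in 6 of 6 cycling CM cells and Flt3 in 3. Zbtb46 was found in 2 of these CM cells, Mgl2 in 1 and Fscn1 in 0. Interstitial macrophage-like cells gave 2 of 85 and 2 of 80. The intervals of the CM and TCM shares overlapped in each of these classes.

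The lymphoid and blood-forming classes added small numbers. Cycling B-like cells numbered 3 of 633 in CM and 1 of 327 in TCM. Plasma-like cells were few, with 3 of 7 called cycling in CM and 2 of 8 in TCM. All 5 cycling cells carried transcripts of Igha, the heavy chain of IgA. Their Igha UMIs came to 602 in CM and 362 in TCM. Their UMIs of the call were 43, 2 and 2 in CM, in cells of 26283, 13283 and 11672 UMIs. In TCM they were 2 and 5, in cells of 19576 and 4183 UMIs. After thinning to equal depth 0 of 7 plasma-like cells were called in each library, so the share depended on depth. Erythroid-like cells gave 4 of 11 and 1 of 3, and NK-like cells 2 of 225 and 0 of 130. Cells led by genes of immature neutrophils (such as Ngp and Camp, encoding granule proteins) were 5 in CM when mixed droplets were placed in their leading class, all 5 cycling, and there were 0 in TCM.

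Structural cells of the lung were seldom in cycle. Endothelial-like cells gave 2 of 1720 in CM (0.116%) and 5 of 1650 in TCM (0.303%), and with mixed droplets in their leading class 11 of 2519 (0.437%) and 11 of 2285 (0.481%) (log2 ratio 0.14, interval -1.21 to 1.49). Fibroblast-like cells gave 1 of 921 and 0 of 620, and pericyte-like cells 2 of 235 and 0 of 169. No cell was called among 236 CM and 230 TCM AT1-like cells, which line the alveolus, nor among 218 and 188 AT2-like cells, which make surfactant. For AT2-like cells a count of 0 allows a share of up to 1.38% in CM and 1.60% in TCM. That count of 0 depended on setting mixed droplets aside. With these in their leading class AT2-like cells gave 2 of 477 (0.419%) and 5 of 425 (1.18%), and by clusters 2 of 538 and 3 of 408. Mixed droplets held a further 27 and 23 cycling cells, 31.8% and 29.5% of all cycling cells, and these have no class in the counts above.

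Neutrophil-like cells were read apart, since mature neutrophils do not divide. None of 232 in CM and none of 1350 in TCM reached 2 UMIs of the call, which allows shares of up to 1.29% and 0.222%. With 1 UMI of the call there were 0 in CM and 15 in TCM. By clusters 4 of 225 neutrophil-like cells in CM (1.78%) and 0 of 1385 in TCM were cycling. All 4 were led by markers of immature neutrophils and are among the cells so led that were counted above. The gated neutrophil-like cells were shallow, with a median of 1174.5 UMIs per cell (CM) and 1522 (TCM). Alveolar macrophage-like cells had 4162 and 4277, so that the neutrophil-like counts came from shallower cells.

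**Figure D1:**
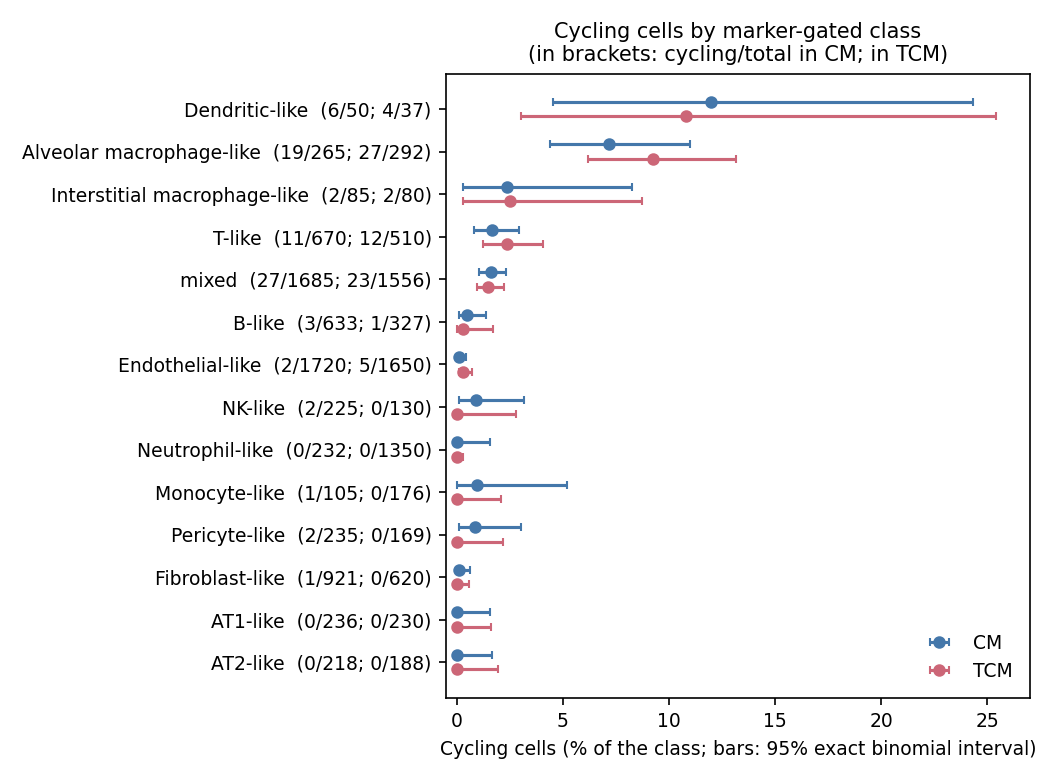
Percentage of cells called cycling in each marker-gated class (horizontal axis, with 95% exact binomial intervals), CM and TCM as separate points, with cycling and total cells in brackets. Alveolar macrophage-like cells stand at 7.17% in CM and 9.25% in TCM with overlapping intervals, and neutrophil-like cells at 0 in both.

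The called cells were then described by the 34 members that do not enter the call. The levels of cycling cells were compared with those of other cells weighted to the same class makeup, and a member was read where it had at least 50 UMIs in the cycling cells. Of 32 such members all 32 were higher by 1.5 fold or more in both libraries, against 11.3% of the 4638 genes read in the same way. That minimum lies in the cycling cells alone, so it favors genes that are higher there. Bub1 and Cdc6 fell below it, with log2 ratios of 6.40 (CM) and 6.56 (TCM) for Bub1 and 4.99 and 4.09 for Cdc6. The median log2 ratio, cycling over other cells, was 3.10 in CM and 3.00 in TCM for S members, and 6.61 and 6.56 for G2/M members. Cenpf, encoding a kinetochore protein, had 212 UMIs in the cycling cells of CM and 237 in those of TCM, with log2 ratios of 8.73 and 9.22. At the other end Mcm4, a subunit of the replicative helicase, had ratios of 2.21 and 1.57. Members and call share the cells they were counted in, so this is a description of the called cells and not a separate measurement of proliferation.

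The same reading over all other genes returned further mitotic and replication genes. The 10 non-members with the largest ratio (the smaller of the libraries) were Pbk, Esco2, Pimreg, Aspm, Knl1, Neil3, Ncapg, Ska1, Iqgap3 and Kif4. Knl1, a scaffold of the kinetochore, had 90 UMIs in the cycling cells of CM and 75 in those of TCM. Ncapg, a condensin subunit, had 36 and 45. Esco2, which acetylates cohesin during replication, had 53 and 47.

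S and G2/M members differed in where their UMIs lay. Cycling cells, about 1 cell in 100, held 79.4% of the UMIs of the 17 G2/M members outside the call in CM (interval 77.6 to 81.1) and 78.4% in TCM (76.6 to 80.2). The 5 genes of the call are left out here, since the rule places their UMIs in these cells. Of the S UMIs they held 29.0% in CM (27.9 to 30.1) and 21.7% in TCM (20.6 to 22.8). Ccnb1, the mitotic cyclin B1, had 95.3% of its UMIs in cycling cells in CM and 93.4% in TCM. Pcna, the sliding clamp of DNA polymerase, had 14.7% and 11.2%, and Mcm4 12.8% and 8.24%. Pclaf, a PCNA-binding protein, and Rrm2, the regulated subunit of ribonucleotide reductase, were S members with a distribution like that of G2/M members, at 90.5% and 81.6% for Pclaf and 83.2% and 76.4% for Rrm2.

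The levels outside cycling cells have to be read against free RNA. In other cells the S members summed to 18.6 UMIs per 100000 in CM and 17 in TCM, while droplets of at most 50 UMIs, which hold mostly free RNA, gave 21.5 and 24.4. The G2/M members summed to 2.21 and 2.33 in other cells and 8.47 and 14.2 in those droplets. Those droplets give the makeup of free RNA, not the amount in a cell. From hemoglobin and airway secretory genes in lymphoid-like cells, that amount was estimated at 129 UMIs per cell in CM and 275 in TCM. It would add 0.880 and 1.95 S UMIs per 100000 and 0.346 and 1.13 G2/M UMIs per 100000 to the other cells, less than was seen for each sum. Some non-called cells nonetheless held many S UMIs: 72 in CM (0.901%) and 74 in TCM (0.960%) had 5 or more, and 33 of them in each library were led by endothelial markers, which led 31.5% of all cells in CM and 29.6% in TCM. These cells were deep, and their median depth was 9987 (CM) and 10386 (TCM) UMIs.

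**Figure D2:**
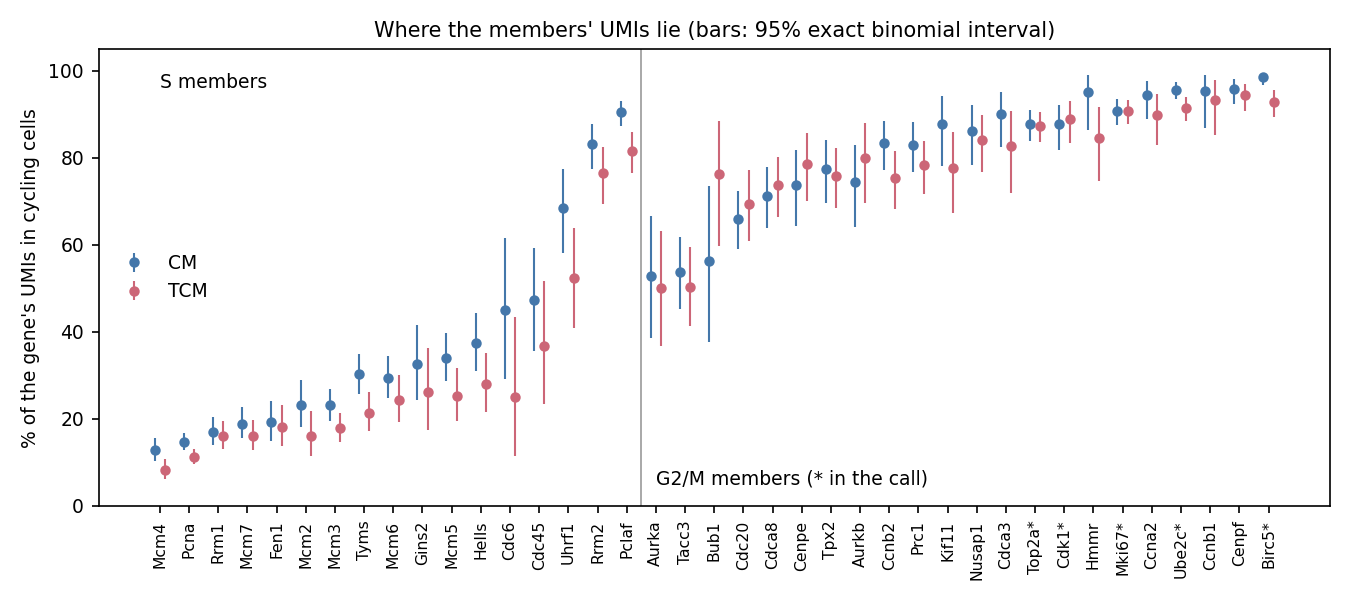
Percentage of each member's UMIs that lay in cycling cells (vertical axis, with 95% exact binomial intervals), for CM and TCM, members side by side. Members of the call (asterisks) are high by the rule. Of the others, G2/M members such as Ccnb1 (95.3% and 93.4%) lie higher than most S members, and Pclaf (90.5% and 81.6%) and Rrm2 (83.2% and 76.4%) are the S members that lie among them.

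Next, the levels of the members were compared between treatments over all cells. The S members were lower in TCM: their sum was 6564 UMIs in CM (25.3 per 100000) and 5682 in TCM (21.1 per 100000), a log2 ratio of -0.26 (interval -0.31 to -0.21). The G2/M members were level, with 3781 UMIs (14.6 per 100000) and 3804 (14.1 per 100000) and a ratio of -0.05 (-0.11 to 0.02). In such sums fewer cells of a type and less RNA per cell cannot be told apart. Without neutrophil-like cells the S ratio was -0.18 and the G2/M ratio 0.05. As a mean over cells, in which deep and shallow cells weigh alike, they were -0.19 and 0.40.

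All 17 S members had a log2 ratio below 0, a count that was 13 with the mean over cells and 13 after thinning, where 59.6% of all genes lay below 0. Of the 22 G2/M members 12 had a ratio above 0, where 40.4% of all genes did. The median was -0.30 over S members, 0.04 over G2/M members and -0.05 over all 16095 genes with at least 20 UMIs. Past 1.5 fold 4 members were lower, where 6.58% of all genes were, and 0 were higher, where 6.19% of all genes were. The S members therefore shifted together by small amounts, and few members passed the fold.

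Replication genes held 3 of the 5 lowest ratios, and Cdc20 and Cdca3 the others. Pclaf (chr9:65890237-65903266, plus strand) had 462 UMIs in 85 cells of CM and 272 UMIs in 87 cells of TCM, a ratio of -0.82 (-1.04 to -0.60), so that it was lower in UMIs but not in the number of cells with a UMI. With the mean over cells its ratio was 0.22. Mcm5 (chr8:75109569-75128439, plus strand), a helicase subunit, had 311 and 209 UMIs and a ratio of -0.63 (-0.89 to -0.37). Cdc45 (chr16:18780447-18811987, minus strand), which activates that helicase, had 74 and 49 UMIs and a ratio of -0.65 (-1.20 to -0.11), which was 0.01 with the mean over cells and 0.52 after thinning.

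Of the G2/M members the lowest were Cdc20 and Cdca3. Cdc20 (chr4:118432901-118437352, minus strand), the activator of the anaphase-promoting complex, had 206 and 131 UMIs, a ratio of -0.71 (-1.04 to -0.39), and non-cycling cells held part of this difference, with 70 and 40 UMIs. Cdca3 (chr6:124829547-124833701, plus strand), a trigger of mitotic entry, had 101 and 70 UMIs and a ratio of -0.58 (-1.05 to -0.13), with 0.79 as a mean over cells.

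The 5 highest ratios all belonged to G2/M members and all had intervals that included 0. Hmmr (chr11:40701395-40733422, minus strand), a spindle protein, had 62 and 78 UMIs (0.28). Nusap1 (chr2:119618298-119651244, plus strand), which bundles spindle microtubules, had 109 and 133 UMIs (0.23). Bub1 (chr2:127801122-127831865, minus strand), a kinase of the spindle checkpoint, had 32 and 38 UMIs (0.19), and Ccnb1 (chr13:100778650-100786570, minus strand) had 64 and 76 (0.19). Mki67 (chr7:135689784-135716361, minus strand), encoding the proliferation antigen Ki-67, had 403 and 467 UMIs (0.16). All these genes are annotated as protein-coding, and the coordinates span the whole gene on GRCm38.p6 in the GENCODE annotation.

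The promoters of the members were read to see what each set shares in sequence. RefSeq windows on GRCm38.p6 from 250 bases before to 50 after the start were matched by symbol for 34 of the 39 members. On either strand the E2F letters TTTNNCGC were found in 9 of 15 S members (60%) and 1 of 19 G2/M members (5.26%), against 5.93% of 27025 genes. The letters TTTGAA of the cell cycle homology region (CHR), through which DREAM and B-MYB act, were found in 3 of 15 S (20%) and 13 of 19 G2/M members (68.4%), against 20.2% of all genes. CCAAT, the NF-Y box, was found in 11 of 15 (73.3%) and 16 of 19 (84.2%), against 41.1%. A match is a description of letters, and its use in these cells was not measured.

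The S members with the lowest ratio or with several E2F matches are shown first. The stretches of 120 bases run 5′ to 3′ on the strand of the gene, at chr9:65890203-65890322 (plus), chr8:75109356-75109475 (plus) and chr1:128359706-128359825 (minus). Capitals mark matches to the E2F letters, CHR or CCAAT on either strand, and overlapping matches run together. In Pclaf the stretch holds 2 CCAAT matches, and its E2F match, 5 bases before the start, runs past the end of the stretch and is not in capitals. In Mcm5 and Mcm6 E2F matches on both strands overlap in 1 run.
Pclaf: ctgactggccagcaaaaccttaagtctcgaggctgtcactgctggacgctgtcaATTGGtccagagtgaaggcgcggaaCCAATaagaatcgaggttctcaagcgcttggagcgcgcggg
Mcm5: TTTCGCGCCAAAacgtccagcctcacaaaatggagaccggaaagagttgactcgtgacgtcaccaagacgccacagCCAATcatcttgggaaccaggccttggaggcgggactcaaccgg
Mcm6: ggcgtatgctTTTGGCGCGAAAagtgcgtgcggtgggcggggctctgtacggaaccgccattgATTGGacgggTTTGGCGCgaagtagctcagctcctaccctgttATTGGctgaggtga

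The G2/M members shown are the genes of the call with 2 CHR matches each, and the pair with the lowest ratios. They lie on the minus strand at chr10:69352924-69353043, chr11:99024259-99024378, chr7:135716448-135716567 and chr4:118437344-118437463, and on the plus strand at chr6:124830056-124830175. Cdk1, the kinase that starts mitosis, was the G2/M member with E2F matches, and its stretch holds these beside CHR and CCAAT. Top2a, which untangles the copied DNA, and Mki67 have CHR beside several CCAAT matches, as does Cdc20 with a CCAAT match close to CHR. The stretch of Cdca3 holds CCAAT matches, and its CHR match, 30 bases after the start, lies outside it, as does the second CHR match of Top2a, while that of Cdk1 runs past the end of its stretch.
Cdk1: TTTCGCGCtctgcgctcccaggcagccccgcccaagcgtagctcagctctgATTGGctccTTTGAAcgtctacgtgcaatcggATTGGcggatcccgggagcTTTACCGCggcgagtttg
Top2a: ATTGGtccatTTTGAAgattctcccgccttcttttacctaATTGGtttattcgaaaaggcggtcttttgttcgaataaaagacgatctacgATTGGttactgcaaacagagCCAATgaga
Mki67: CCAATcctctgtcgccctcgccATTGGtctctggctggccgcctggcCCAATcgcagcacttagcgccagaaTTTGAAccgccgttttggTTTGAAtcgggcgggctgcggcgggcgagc
Cdc20: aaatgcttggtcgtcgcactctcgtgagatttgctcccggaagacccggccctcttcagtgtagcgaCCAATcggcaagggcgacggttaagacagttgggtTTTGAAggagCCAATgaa
Cdca3: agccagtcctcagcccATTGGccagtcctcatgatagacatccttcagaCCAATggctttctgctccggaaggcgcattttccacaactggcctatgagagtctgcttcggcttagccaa

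Pooled over the cycling cells of all classes, the S sum was lower and the G2/M sum higher in TCM. The S sum was 1902 UMIs in the 85 cells of CM and 1232 in the 78 cells of TCM, a log2 ratio per 100000 UMIs of -0.33 (-0.43 to -0.23). The G2/M sum was 3228 and 3193 UMIs, a ratio of 0.28 (0.21 to 0.35). Without the genes of the call, by which these cells were picked, it was 1653 and 1606 UMIs, a ratio of 0.25 (0.15 to 0.35). The pooled split was not that of each class. In cycling cells not led by alveolar macrophage markers the S ratio was -0.61 (-0.74 to -0.49) and the G2/M ratio -0.06 (-0.15 to 0.03), in cycling mixed droplets they were -0.12 and -0.41, and in cycling alveolar macrophage-like cells both were above 0. Past 1.5 fold 4 members were lower, all of them S members, where 11% of 8053 genes were, and 1 was higher, where 19.4% of genes were. Pclaf had 418 and 222 UMIs in cycling cells (-0.62), Mcm5 106 and 53 (-0.70), and Mki67 366 and 424 (0.51). The S share of the S and G2/M UMIs outside the call, over cells with at least 5 of them, had a median of 50% in CM and 41.6% in TCM.

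A few deep cells carried much of the S signal of CM. The 5 cycling cells with most S UMIs in CM had 159, 154, 153, 112 and 103, which was 35.8% of the S UMIs of all cycling cells there, and 4 of them were T-like. In TCM the top 5 had 92, 86, 67, 57 and 53, which was 28.8%. Without the 5 top cells of each library the S ratio over all cells was -0.20 in place of -0.26.

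**Figure D3:**
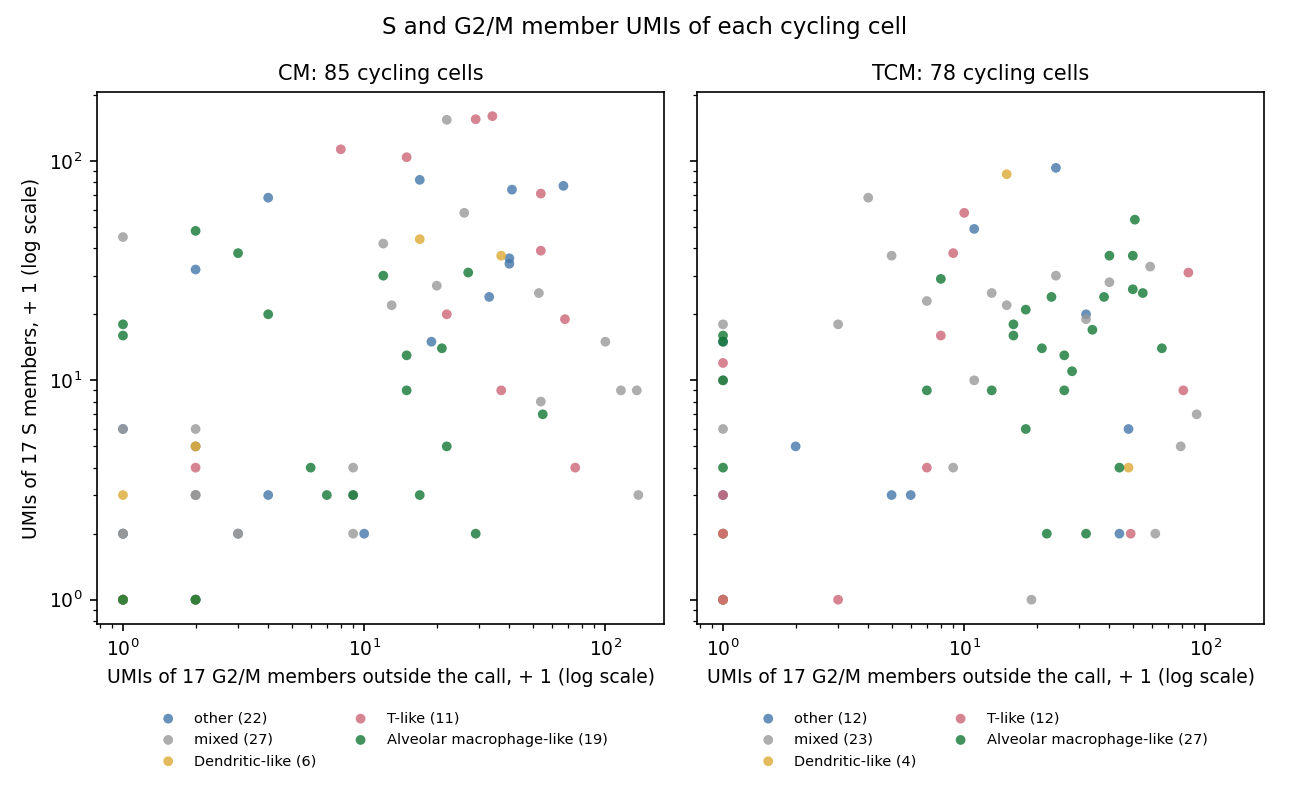
UMIs of the 17 S members (vertical axis) against UMIs of the 17 G2/M members outside the call (horizontal axis), each plus 1 on a log scale, 1 point per cycling cell, colored by marker-gated class. The T-like cells of CM reach 159 S UMIs, and in TCM the alveolar macrophage-like cells gather to the right, at high G2/M counts.

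In alveolar macrophage-like cells the G2/M members were higher in TCM. Their G2/M members summed to 485 UMIs in 265 cells of CM (39.4 per 100000) and to 1388 UMIs in 292 cells of TCM (102 per 100000), a log2 ratio of 1.37 (1.22 to 1.52). Their S members summed to 499 and 708 UMIs (40.6 and 51.9 per 100000), a ratio of 0.36 (0.19 to 0.52). The intervals of the G2/M and S ratios did not overlap, but they count each UMI as a separate draw. Of the G2/M UMIs 443 lay in 19 cycling cells of CM and 1338 in 27 of TCM. The difference between the G2/M and S ratios was not tested. The class size was similar in both libraries, at 3.32% of CM and 3.79% of TCM cells.

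Of 37 members with at least 20 UMIs in this class 24 were higher in TCM by 1.5 fold or more, 18 of them G2/M and 6 S members, where 12.8% of 8193 genes were. None was lower, where 4.42% of genes were. The median log2 ratio was 1.47 over G2/M members, 0.32 over S members and 0.10 over all genes read. The higher members spanned the steps of mitosis. Ccnb1 had 4 UMIs in CM and 36 in TCM (3.02, interval 1.54 to 4.97), and its partner kinase gene Cdk1 28 and 64 (1.04).

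Among the spindle and kinetochore genes Nusap1 had 14 and 62 UMIs (2.0), Kif11, a motor that separates the spindle poles, 8 and 32 (1.85), and Cenpe, a kinetochore motor, 12 and 42 (1.66). Prc1, which organizes the midzone for the division of the cell body, had 23 and 80 UMIs (1.65), and Aurkb, the kinase of the passenger complex, 9 and 31 (1.64). The genes of the call moved alike, with Mki67 at 71 and 215 UMIs (1.45), Top2a at 50 and 160 (1.53), Birc5 at 35 and 112 (1.53) and Ube2c at 45 and 125 (1.32). Aurka (8 and 12 UMIs), Ccnb2 (35 and 51), Cdc20 (11 and 17) and Tacc3 (24 and 32) were the G2/M members that did not reach 1.5 fold.

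The S members of this class were divided. Rrm2 had 11 UMIs in CM and 55 in TCM (2.17, interval 1.22 to 3.26), Mcm3 28 and 74 (1.25), Rrm1 25 and 50 (0.85) and Pclaf 42 and 83 (0.83). Mcm6 had 28 and 31 (-0.00), Tyms, the thymidylate synthase gene, 29 and 31 (-0.05), and Pcna 165 and 167 (-0.13). Of the helicase subunits named here Mcm3 was higher and Mcm6 was level, and the nucleotide reductase subunits were both higher.

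**Figure D4:**
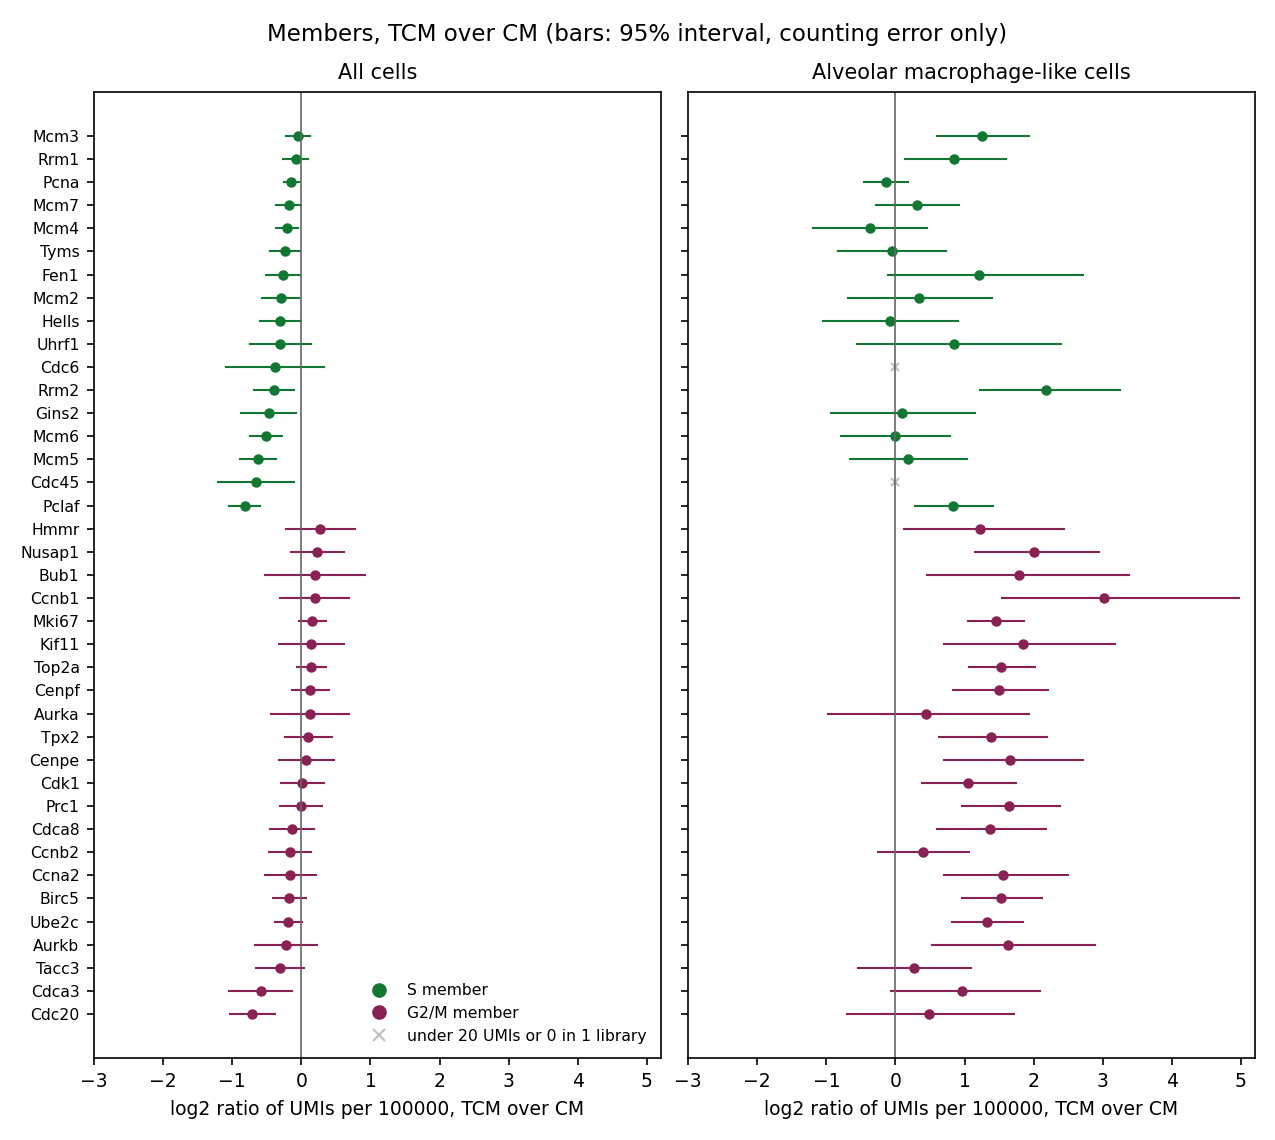
Log2 ratio of each member's UMIs per 100000, TCM over CM, with 95% intervals for counting error, in all cells (left) and in alveolar macrophage-like cells (right). On the left all 17 S members lie below 0, and on the right 24 of 37 members read lie past 1.5 fold above 0, led by Ccnb1 at 3.02.

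The class was then divided into cycling and other cells, a split that the 5 genes of the call decide, so that the sums leave these genes out. The 19 cycling cells of CM held 230 UMIs of these G2/M members and the 27 of TCM held 679, a ratio of 1.16 (0.94 to 1.38), and the S sums were 247 and 439 UMIs, a ratio of 0.42 (0.20 to 0.66). In the other alveolar macrophage-like cells the sums of G2/M members outside the call were 26 and 33 UMIs (0.23, interval -0.55 to 1.03) and the S sums 252 and 269 (-0.02, interval -0.27 to 0.24). With the genes of the call counted too, 21 of 33 members were higher within the cycling cells by 1.5 fold or more, where 19.4% of 2947 genes were, and 1 was lower, where 11.4% of genes were.

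Cell by cell, most cycling alveolar macrophage-like cells of TCM held more G2/M UMIs than the median CM cell. The G2/M members outside the call had a median of 8.40 UMIs per 10000 in CM (lowest 0, highest 65.1) and 34.6 in TCM (lowest 0, highest 81.4). The S members had medians of 13.6 and 19.9. Of the 19 cells in CM 5 had 20 or more UMIs of the call, and of the 27 in TCM 16 had. The ranges overlapped, and the TCM cells were not deeper, with a median of 6634 UMIs against 7999.

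How droplets were assigned to the class moved the size of this difference. With clusters in place of gates the G2/M sums were 830 UMIs in 320 cells of CM and 1497 in 331 cells of TCM, a ratio of 0.74 (0.61 to 0.86), and with mixed droplets placed in their leading class the ratio was 0.92. Both ways added to CM a mixed droplet of 17325 UMIs that held 99 G2/M UMIs outside the call and 96 of the call. Without the 1, 3 or 5 cells of most G2/M UMIs in each library the ratio by gates was 1.48, 1.68 or 1.87. The top 3 cells held 42.2% of the G2/M UMIs of the cycling cells of this class in CM and 24.8% in TCM. Leaving them out therefore took a larger part from CM, and these ratios do not test the difference. By clusters and with mixed droplets in their leading class the TCM cells were still higher.

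Single classes went both ways, but pooled over all cells outside the alveolar macrophage-like class the G2/M members were lower in TCM. Their sums were 3296 and 2416 UMIs, a ratio of -0.50 (-0.57 to -0.42), which was -0.11 after thinning and 0.12 as a mean over cells, so that its direction depended on how cells were weighted. Mixed droplets alone gave 1565 and 1062 UMIs (-0.57). Among cycling mixed droplets the most G2/M UMIs outside the call in 1 droplet were 136 in CM and 91 in TCM. B-like cells were lower in TCM, at -1.14 (interval -1.76 to -0.56). T-like cells stood at 0.10 (interval -0.07 to 0.26) and fibroblast-like cells at 0.29 (interval -0.32 to 0.90). Endothelial-like cells held 88 and 265 UMIs (1.33, interval 0.98 to 1.70), of which the 2 and 5 cycling cells held 15 and 164. In the other endothelial-like cells the sums were 73 and 101 UMIs (0.22, interval -0.23 to 0.67). NK-like cells were lower, with 97 and 16 UMIs (-1.68, interval -2.55 to -0.91), where 2 and 0 cells were cycling, and 22 and 16 UMIs lay outside the cycling cells.

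**Figure D5:**
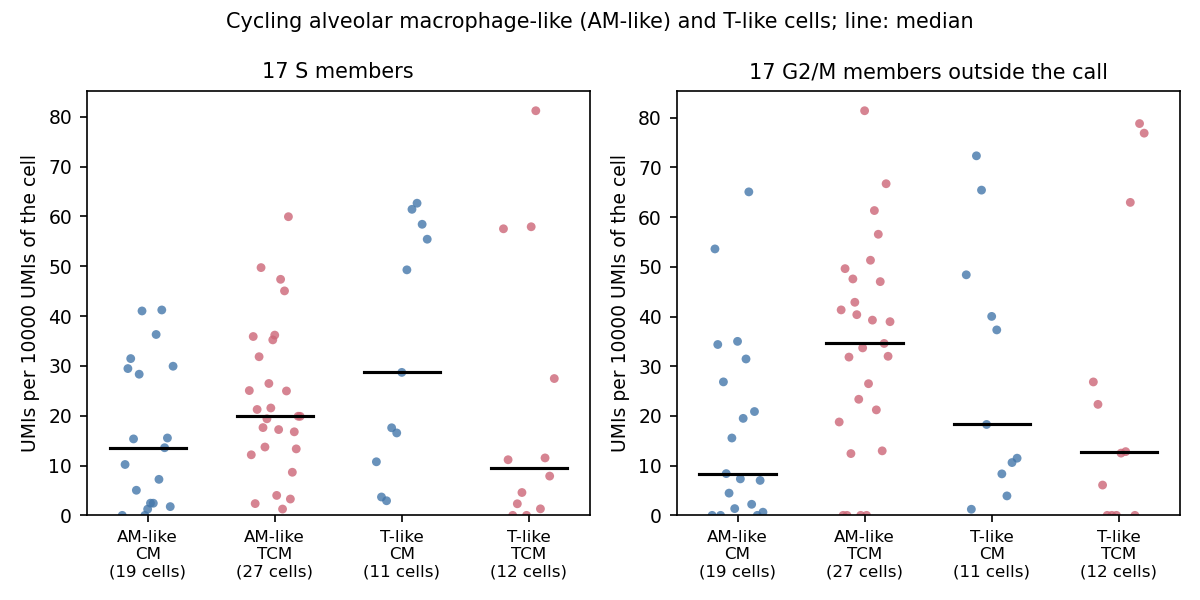
UMIs per 10000 of the 17 S members (left) and of the 17 G2/M members outside the call (right) in each cycling alveolar macrophage-like and T-like cell, CM and TCM side by side, with the median as a line. The G2/M median of alveolar macrophage-like cells is 8.40 in CM and 34.6 in TCM, and the ranges overlap.

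Cycling T-like cells showed fewer S UMIs in TCM. The 11 cells of CM held 687 S UMIs (417 per 100000) and the 12 cells of TCM 165 (220 per 100000), a log2 ratio of -0.92 (-1.18 to -0.67). The G2/M sums were 698 and 492 UMIs (424 and 656 per 100000), a ratio of 0.63 (0.46 to 0.80). These sums count the genes of the call, by which the cells were picked. Without those genes they were 387 and 244 UMIs (235 and 326 per 100000), a ratio of 0.47 (0.23 to 0.71). In TCM 3 cells held 419 of the 492 G2/M UMIs, and 7 of the 12 had 2 or 3 UMIs of the call, against 1 of the 11 in CM. Cell by cell the G2/M members outside the call went the other way, with a median of 18.3 UMIs per 10000 in CM and 12.7 in TCM. Of the S members 10 of 14 read were lower by 1.5 fold or more, where 23.7% of 1901 genes were, and 7 G2/M members were higher, where 15.7% of genes were. Mki67, Top2a and Ube2c, which enter the call, were among these 7. Kif11, with 17 and 5 UMIs (-0.63), was the 1 G2/M member lower by that fold. Pclaf had 155 and 30 UMIs (-1.23), Mcm5 41 and 7 (-1.41) and Pcna 58 and 10 (-1.40), while Ube2c, the E2 enzyme of the anaphase-promoting complex, had 73 and 87 (1.39). Without the 5 cells of most S UMIs in each library the S ratio was -0.42. Clusters placed the CM cells of 159 and 154 S UMIs among NK-like cells. Over the alternative settings, clusters among them, the S ratio lay from -0.92 to -0.42.

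The cycling T-like cells of the libraries also differed in depth and in T cell subset genes. The CM cells were deeper, at a median of 13242 UMIs against 6226 in the TCM cells. Gzmb, encoding the cytotoxic protease granzyme B, had 56 UMIs in 4 of the 11 CM cells and 1 UMI in the 12 TCM cells, and Cd8b1, a chain of the CD8 coreceptor, had 66 UMIs in 4 cells and 1 UMI. Foxp3, the regulator of regulatory T cells, was detected in 3 of 11 and 6 of 12 cells, and Cd4 in 4 and 6. The part of depth and of subset in the S difference was not tested. In T-like cells outside the cycle the S sums were 479 and 329 UMIs, a ratio of -0.03 (-0.24 to 0.17).

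The regulators around the module were read as 5 lists of 72 genes in all. Of the G1 cyclins and CDKs, which carry cells towards S phase, 8 of 8 could be read over all cells and none passed 1.5 fold, where 6.19% of all genes were higher by that fold and 6.58% lower. The same background holds for the other lists. Cdk6 was highest (900 and 1121 UMIs, 0.26), then Ccnd3 (3328 and 3978, 0.20), and Cdk4 was lowest (2986 and 2769, -0.16), followed by Ccne1 (33 and 33, -0.05). Cyclin D genes are transcribed in resting cells too, and Ccnd1 and Ccnd2 were not higher in cycling than in other cells (Ccnd2 log2 ratio -0.55 in CM and -0.35 in TCM).

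The CDK inhibitors, which hold the cycle back, differed among themselves. Cdkn1a, encoding p21, had 14320 UMIs in CM and 20226 in TCM (0.44), with 0.21 in endothelial-like cells and -0.37 in neutrophil-like cells. Cdkn2d had 1108 and 1862 UMIs (0.69), the 1 inhibitor of 7 past 1.5 fold, and 632 of its TCM UMIs lay in neutrophil-like cells against 31 in CM. Without neutrophil-like cells the Cdkn2d ratio was 0.24 (interval 0.13 to 0.36), short of that fold. Cdkn2c was lower (1125 and 869 UMIs, -0.43), with 573 and 406 of these in fibroblast-like cells, and Cdkn2a had 55 and 47 UMIs (-0.28).

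Of the 15 RB, E2F and MuvB genes, which time the transcription of the module, 1 was higher and none lower by 1.5 fold. E2f7, a repressor of replication genes, had 24 and 38 UMIs (0.61, interval -0.17 to 1.41) and E2f8 25 and 31 (0.26), while Mybl2, encoding B-MYB, had 27 and 20 (-0.49) and Lin54, a DREAM subunit that binds CHR, 372 and 301 (-0.36). Of the 19 other S phase genes read 0 were higher and 1 lower, with a median of -0.18. Clspn, encoding the checkpoint mediator claspin, had 97 and 66 UMIs (-0.61) and Dut, the dUTPase gene, 947 and 716 (-0.46), and the highest were Asf1b (107 and 117, 0.07) and Dscc1 (24 and 26, 0.06).

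Of the 22 other G2 and M genes 4 were higher and 2 lower by 1.5 fold (6.19% and 6.58% of all genes), with a median of -0.00. Plk1, the polo kinase of mitosis, had 41 and 68 UMIs (0.67, interval 0.09 to 1.27) and Ckap2l, a spindle protein, 74 and 122 (0.67, 0.24 to 1.1). Cdkn3 had 72 and 46 UMIs (-0.70) and Nuf2, a kinetochore protein, 39 and 27 (-0.59). In alveolar macrophage-like cells Plk1 had 4 UMIs in CM and 26 in TCM (2.55) and Anln, encoding a contractile ring protein, 16 and 50 (1.49), in the same direction as the G2/M members there. All 20 of these G2 and M genes with at least 50 UMIs in cycling cells were higher there by 1.5 fold or more in both libraries. So were all 15 such S phase genes, where 11.3% of 4638 genes were. That minimum lies in the cycling cells alone, so it favors genes that are higher there.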

How the data were processed

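Suspensions of whole lung were made into Chromium 5′ libraries and sequenced on an Illumina NovaSeq, 1 library per treatment. According to the study's methods and the file headers, the authors mapped the reads with Cell Ranger to mm10 (GRCm38.p6), and the submitters' processing notes also name Seurat. The deposited matrices hold raw UMI counts for 737280 barcodes and 32286 features, with no cell filter and no normalization. The limits on UMIs, genes and mitochondrial share used here are those of the study's methods.

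Levels are UMIs per 100000 UMIs of the same cells. A ratio was read for genes with at least 20 UMIs over both libraries, and 1.5 fold was the size named. Intervals are exact (Clopper-Pearson for shares, Poisson for counts, conditional binomial for ratios), and a count of 0 is given with the limit that 3 counts allow. With 1 library per treatment no test was run. Classes were the one with most of its 8 markers detected, at least 2 and 1 ahead of the next. As an alternative 42 Leiden clusters, made without cell cycle genes, were named from the same markers. Scrublet's own threshold marked 0.0250% of CM and 0% of TCM cells, so it had not worked and doublets were kept. Leaving out the top 6% of scores was an alternative. Thinning drew 1000 UMIs per cell with a fixed seed. The ratio script was checked on simulated counts.

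Named genes were all 39 members by role, the 5 highest and 5 lowest ratios over all cells, the 2 highest and 2 lowest of each list, and the 10 non-members with the largest ratio of cycling over other cells. Subset genes of T, plasma and dendritic cells, and Plk1, Anln, Ccnd1, Ccnd2 and Cdk6 in single classes, were chosen after their values were seen. The members and lists were chosen with earlier results of these data known. Python 3.11.15, numpy 2.4.6, scipy 1.17.1 and scanpy 1.11.5 were used.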

Additional observations from a re-analysis of the deposited data

Results flagged for a closer look

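The G2/M member sum was higher in TCM in alveolar macrophage-like cells, at a log2 ratio of 1.37 (interval 1.22 to 1.52), and lower in all other cells together, at -0.50 (interval -0.57 to -0.42). It is given here because the same contrast went in opposite directions in these cells and in the pooled sum of the rest. In single classes of the rest it went both ways, at 1.33 in endothelial-like and -1.14 in B-like cells. The difference between alveolar macrophage-like cells and the pooled rest was not tested, since each treatment had 1 library. The sum over all other cells was 0.12 as a mean over cells. The S member sum of cycling T-like cells was lower in TCM, at -0.92 (interval -1.18 to -0.67), while that of cycling alveolar macrophage-like cells was higher, at 0.42 (interval 0.20 to 0.66). This difference was not tested either. The 11 cycling T-like cells of CM had a median of 13242 UMIs and the 12 of TCM a median of 6226, and the part of depth in it was not tested.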

How the results depend on the processing

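No paired analysis was possible because each treatment had 1 library, and for the same reason no replicate could be left out. Of 116 alternative values of the 16 main results 88 stayed within their counting interval or limit, and 28 moved. None reversed where the main interval excluded 0. Where that interval included 0 the direction was not checked, so some of the 88 may differ in sign. The cycling share of CM and TCM was 2.62% and 3.20% with a call of 1 UMI, 5.28% and 5.16% with 3 UMIs over the S members, 0.499% and 0.626% after thinning, and 1.44% and 1.28% in cells of at least 1000 UMIs, and with a call of 3 UMIs it was 0.789% in CM. After thinning, alveolar macrophage-like cells stood at 2.55% in CM, with a log2 ratio of 1.51. The S sum ratio was -0.19 as a mean over cells, -0.18 without neutrophil-like cells and -0.20 without the 5 cells of most S UMIs. The G2/M sum ratio was 0.40 as a mean over cells, 0.26 after thinning, 0.046 without neutrophil-like cells, -0.21 with at most 5% mitochondrial UMIs and 0.086 without the 5 cells of most G2/M UMIs, so its direction rested on the setting. In alveolar macrophage-like cells it was 1.21 as a mean over cells, 1.09 after thinning, 0.74 by clusters and 0.92 with mixed droplets in their leading class. Outside them it was 0.12 as a mean over cells. Members higher by 1.5 fold were 11 as a mean over cells, 7 after thinning and 2 without the 5 cells of most G2/M UMIs, against 0, and members lower were 1 as a mean over cells and 2 without neutrophil-like cells, against 4. As a mean over cells Pclaf was at 0.22, Cdc45 at 0.0057 and Cdca3 at 0.79, and after thinning Cdc45 was at 0.52. Causes were not tested. The settings that leave out the 5 top cells, place mixed droplets in their leading class, or apply clusters to the sums of a class were chosen after seeing the data.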

Other observations

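Endothelial-like cells, the largest gated class, were divided by capillary and vessel markers. Of general capillary cells 1 of 1149 in CM and 2 of 1192 in TCM were cycling, and of aerocytes, the capillary cells that face the airspace, 0 of 226 and 2 of 221. Cells of large vessels gave 0 of 78 and 0 of 55. In alveolar macrophage-like cells the G1 genes Ccnd2 and Cdk6 had 541 and 836 UMIs (log2 ratio 0.48) and 91 and 149 UMIs (0.56). The 3 cycling B-like cells of CM held 95 S UMIs, and the 1 of TCM held 4. Non-cycling dendritic-like cells had 43 S UMIs in 44 cells of CM and 89 in 33 cells of TCM, a log2 ratio of 1.25 (interval 0.71 to 1.81).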
